A study of Mus musculus with 50 samples.

Results

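The DNA replication and S phase genes of these data are 40 genes that build, start and supply the replication fork: the 6 subunits of the MCM2 to MCM7 helicase, 4 origin licensing factors, 6 helicase activation factors, the sliding clamp and its loader, polymerases and primase, the single-strand binding protein RPA, Okazaki fragment enzymes, nucleotide suppliers, and Ung and Slbp. The rule listed the genes by name. For each, the probe set with the highest mean over all arrays was taken among those annotated to that gene alone. All 40 had such a probe set and passed the intensity filter, out of 18193 gene symbols with a probe set of their own and 12883 that passed the filter. A probe set is a group of short probes on the array that together measure 1 transcript. On all 50 arrays 39 of the 40 exceeded the median intensity of the table, and Tyms did so on 49.

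The study hybridised polysomal RNA, the RNA bound to ribosomes, of young adult mouse colon (YAMC) cells to Affymetrix mouse genome arrays, 10 arrays for each of 5 groups. YAMC is the parental culture, from the H-2Kb/tsA58 Immorto-mouse, which carries a temperature-sensitive simian virus 40 large T under an interferon gamma-inducible promoter. The other 4 groups were polyclonal populations made from low-passage YAMC cells with retroviruses: bleo/Neo received both empty vectors, mp53 received p53175H with the Neo vector, Ras received RasV12 with the Bleo vector, and the mp53/Ras population received p53175H together with RasV12. p53175H is a mutant form of the tumour suppressor p53, and RasV12 is a constitutively active Ras. All 5 groups carry the large T transgene, and all were kept without interferon gamma at 39 °C, where large T does not function, for 48 h and for a further 24 h in 0% serum, per the labels' protocols. The labels state that the cells were sub-confluent and cycling at harvest. Each genotype exists as 1 population, so a genotype and the history of its population cannot be told apart. The labels number the replicates without saying whether they were separate cultures, so the spread behind each p-value is that among these samples and may be technical. Polysomal RNA reflects transcript abundance and ribosome loading together. In RNA from whole cultures, fewer cells in S phase and less RNA per cell cannot be told apart.

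Replication begins in G1, when ORC, Cdc6 and Cdt1 load the ring-shaped MCM helicase onto origins. At the start of S phase Cdc45 and the GINS complex bind MCM and turn it into the active helicase, and DNA polymerase alpha with primase, epsilon and delta copy the strands behind it with the help of PCNA, its loader RFC and RPA. Many of these genes are transcribed together in late G1 by E2F factors, which the retinoblastoma protein Rb1 holds in check, so their RNA is widely used as a sign of cells entering S phase.

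E2F factors bind short words in promoters, so the stretches just before the members' start sites were searched. RefSeq promoter windows (GRCm38.p6) were held for 33 of the 40 members, as 37 windows, and the 250 bases before each start were read. The words searched were TTTCCCGC, TTTGGCGC, TTTCGCGC and TTTGCCGC, on both strands, with overlapping matches counted, and CCAAT, the NF-Y box, on both strands. An E2F word stood in 8 of the 37 member windows (21.6%) against 611 of all 32851 windows (1.86%). Of the 37, 13 had fewer than 200 bases outside the gene's own RefSeq record. Among these were the windows with an E2F word in Mcm7, Orc1, Cdc6 and Pola1. The 32851 windows were not sorted in this way. CCAAT stood in 59.5% of the member windows against 33.8% of all windows, and the median GC content was 61.2% against 52.4%. By gene, 8 of 33 members (24.2%) had an E2F word and 21 (63.6%) had CCAAT. These matches are descriptions of letters and were not tested for a role. The sequences below cover the bases of the window that lie outside the gene's own RefSeq record, for members whose values are described in detail (Mcm5, Rrm1, Cdt1 and Fen1) and for 3 further members, Rfc3, Gins3 and Mcm6, chosen after they were seen to hold an E2F word. Windows of Pola1, Cdc6, Mcm7, Orc1 and Ung are not shown, as each had fewer than 200 bases outside the gene's own record. Each runs 5′ to 3′ on the gene's strand, and capitals mark E2F words, read on either strand.
Mcm5, chr8:75109259-75109467, + strand: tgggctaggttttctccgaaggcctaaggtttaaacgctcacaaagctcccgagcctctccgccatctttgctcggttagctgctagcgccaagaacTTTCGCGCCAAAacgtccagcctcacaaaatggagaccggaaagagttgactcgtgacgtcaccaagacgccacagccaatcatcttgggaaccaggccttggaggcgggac

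Rrm1, chr7:102441445-102441694, + strand: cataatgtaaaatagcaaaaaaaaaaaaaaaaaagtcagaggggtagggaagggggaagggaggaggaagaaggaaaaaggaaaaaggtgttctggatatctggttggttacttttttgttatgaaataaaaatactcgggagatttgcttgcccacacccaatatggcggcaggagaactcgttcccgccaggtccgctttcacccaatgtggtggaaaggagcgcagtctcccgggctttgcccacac

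Cdt1, chr8:122567765-122568014, + strand: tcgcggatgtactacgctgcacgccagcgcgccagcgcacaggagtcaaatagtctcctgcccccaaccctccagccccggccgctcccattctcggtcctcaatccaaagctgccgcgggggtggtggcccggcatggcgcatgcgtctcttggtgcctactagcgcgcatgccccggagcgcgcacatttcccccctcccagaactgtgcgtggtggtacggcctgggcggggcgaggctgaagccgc

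Fen1, chr19:10204394-10204643, - strand: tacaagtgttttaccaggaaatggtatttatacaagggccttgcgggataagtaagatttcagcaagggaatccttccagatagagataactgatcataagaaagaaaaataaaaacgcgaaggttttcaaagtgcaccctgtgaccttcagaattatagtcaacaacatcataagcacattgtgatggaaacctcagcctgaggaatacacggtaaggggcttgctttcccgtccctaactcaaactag

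Rfc3, chr5:151651209-151651458, - strand: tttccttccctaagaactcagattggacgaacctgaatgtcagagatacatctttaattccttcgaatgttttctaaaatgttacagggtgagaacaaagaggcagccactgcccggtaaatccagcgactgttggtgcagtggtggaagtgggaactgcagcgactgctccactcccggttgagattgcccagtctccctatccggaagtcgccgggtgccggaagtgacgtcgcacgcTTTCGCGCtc

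Gins3, chr8:95633309-95633558, + strand: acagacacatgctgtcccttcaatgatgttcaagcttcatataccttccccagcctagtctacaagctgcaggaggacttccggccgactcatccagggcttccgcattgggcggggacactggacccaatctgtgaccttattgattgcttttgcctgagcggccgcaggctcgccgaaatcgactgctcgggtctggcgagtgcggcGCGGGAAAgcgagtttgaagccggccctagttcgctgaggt

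Mcm6, chr1:128359706-128359955, - strand: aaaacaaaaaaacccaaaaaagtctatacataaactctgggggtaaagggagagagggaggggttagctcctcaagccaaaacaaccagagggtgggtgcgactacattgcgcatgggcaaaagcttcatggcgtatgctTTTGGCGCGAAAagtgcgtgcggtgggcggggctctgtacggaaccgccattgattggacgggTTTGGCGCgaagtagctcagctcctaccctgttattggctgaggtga

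In Mcm5 the 2 words overlap and begin 153 and 149 bases before the start. Mcm6 holds 3 words, of which 2 overlap, beginning 110, 106 and 47 bases before its start. The Gins3 word begins 41 bases and the Rfc3 word 10 bases before the start, while the stretches shown for Rrm1, Cdt1 and Fen1 hold none of the E2F words.

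Values are log2 intensities, on which a difference of 1 is a 2-fold change. Differences were tested with limma across all 12883 genes and called at a Benjamini-Hochberg adjusted p under 0.05, and values after ± are standard errors of the fit for differences and SDs over 10 arrays for levels. The replication genes stood highest in the vector population and lowest in the cells with both oncogenes. Averaged over the 40 members, the level was 10.92 ± 0.092 in bleo/Neo, 10.77 ± 0.097 in YAMC, 10.70 ± 0.123 in Ras, 10.70 ± 0.113 in mp53 and 10.53 ± 0.064 in mp53/Ras (SD, n = 10 each). The 10 mp53/Ras arrays lay between 10.38 and 10.62, and the 10 bleo/Neo arrays between 10.78 and 11.08, so these groups did not overlap in this average. The group mean was highest in bleo/Neo for 28 of the 40 genes and lowest in mp53/Ras for 29. The spread of arrays within a group was like that of other genes (median SD 0.194 for the members and 0.207 for all genes tested), and the range of the 5 group means was 0.456 in the median against 0.407.

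**Figure D1:**
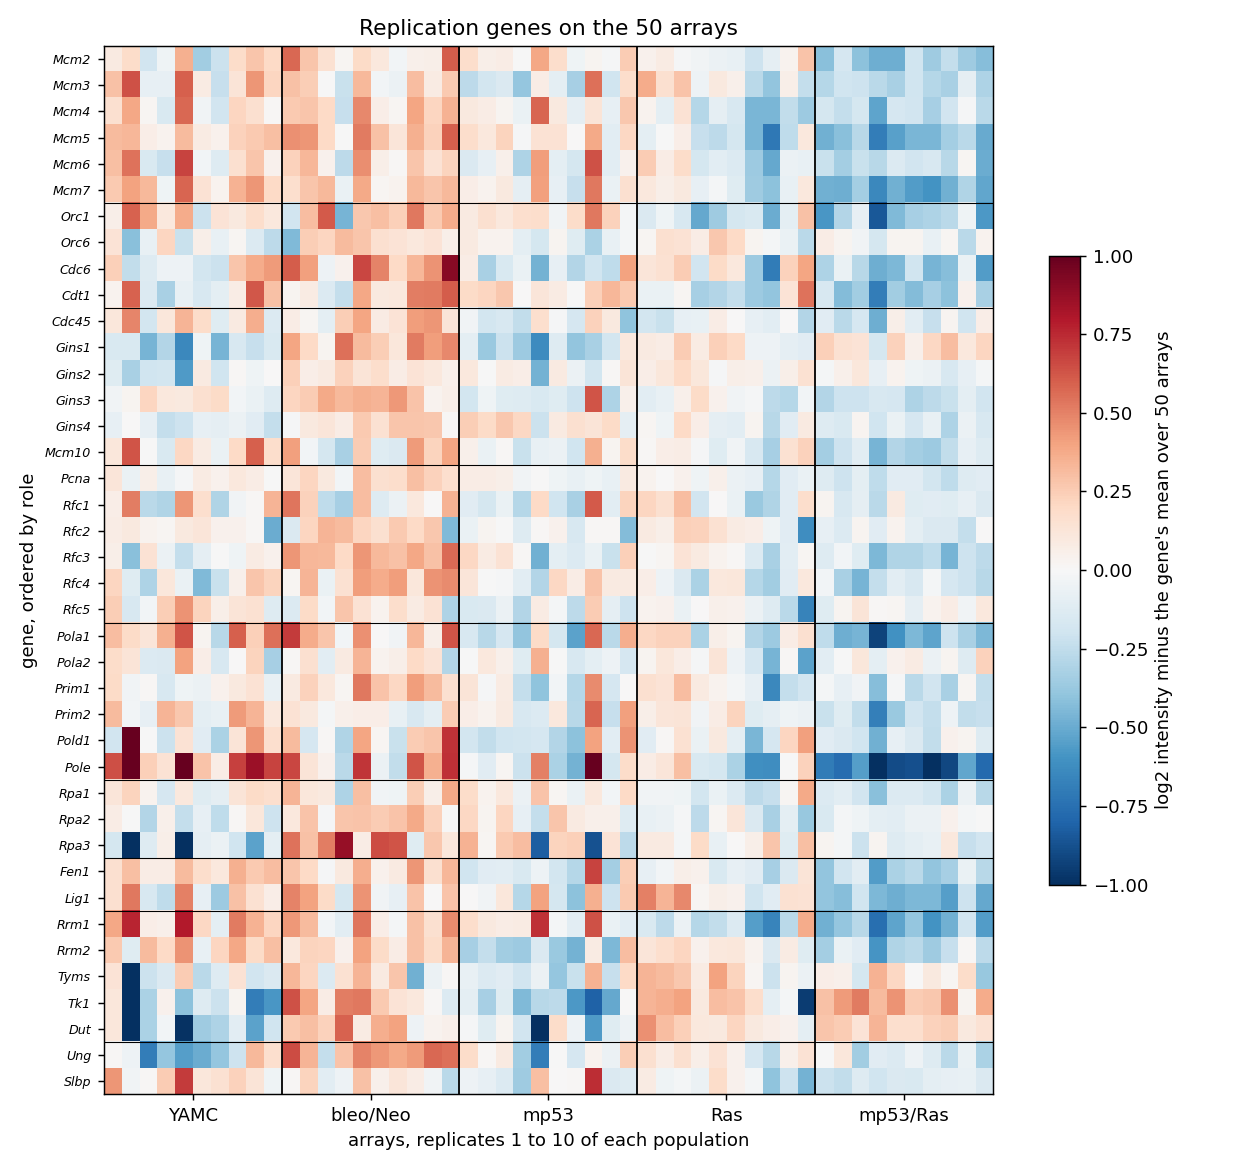
Each row is 1 of the 40 genes, ordered by role, and each column 1 of the 50 arrays, with colour giving log2 intensity minus the gene's mean over all arrays. Most rows are red in bleo/Neo and blue in mp53/Ras, while Gins1, Tk1 and Dut are red in mp53/Ras.

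Set against the vector control, mp53/Ras cells held less polysomal RNA of most replication genes. Of the 40, 31 fell and 0 rose, against a background of 54.6% of all genes called in this comparison (27.9% lower and 26.7% higher). At an unadjusted p under 0.05, limma gave 33 lower and 0 higher. The share of all genes at that unadjusted threshold was not computed, so this count has no background beside it. The median difference was -0.38 for the members and 0.01 for all genes. In 14 members every mp53/Ras array lay below every bleo/Neo array (35%), against 10.4% of all genes. Without mp53/Ras array 4, which was the lowest of its group in 20 members, 30 fell. Leaving out also bleo/Neo 4 and Ras 8, the arrays lowest in 18 and 21 members of their groups, 28 fell. In these refits 52.9% and 53.5% of all genes were called either way.

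Against the parental YAMC cells the same arrays gave 23 members lower and 3 higher (background 57.8% called, 28.7% lower and 29.1% higher), with a median of -0.26. In 7 members every mp53/Ras array lay below every YAMC array (17.5% against 8.97% of all genes). The controls themselves differed, and bleo/Neo stood above YAMC in 15 members and below it in 0 (background 37.4% called, 20% higher and 17.4% lower). In Gins1 and Rfc3 every bleo/Neo array lay above every YAMC array (5% against 2.38% of all genes). Limma gave 16 higher and 1 lower there at an unadjusted p under 0.05, a count without a background of all genes. The comparisons share arrays, so they are given side by side: 22 members (55%) were lower in mp53/Ras than in both controls, against 19.5% of all genes, 8 were lower than bleo/Neo alone (Gins2, Gins4, Rfc2, Rfc4, Prim1, Rpa2, Rpa3 and Ung), Slbp was lower than YAMC alone, Tk1 and Dut were higher than YAMC alone, and Gins1 was lower than bleo/Neo and higher than YAMC. mp53/Ras was below each of the 4 other groups in 10 of the 40 members (25%), against 7.29% of all genes: Mcm2, Mcm5, Mcm7, Pcna, Rfc3, Pola1, Prim2, Pole, Fen1 and Lig1. These lists rest on 1 probe set per gene. The other probe set of Rfc3 was at -0.02 from YAMC and -0.03 from mp53. Another set of Prim2 was at 0.14 from bleo/Neo and 0.08 from mp53, and a further one at -0.15 and -0.17. The other sets of Mcm2, Mcm5, Mcm7 and Fen1 kept their sign against all 4 groups.

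**Figure D2:**
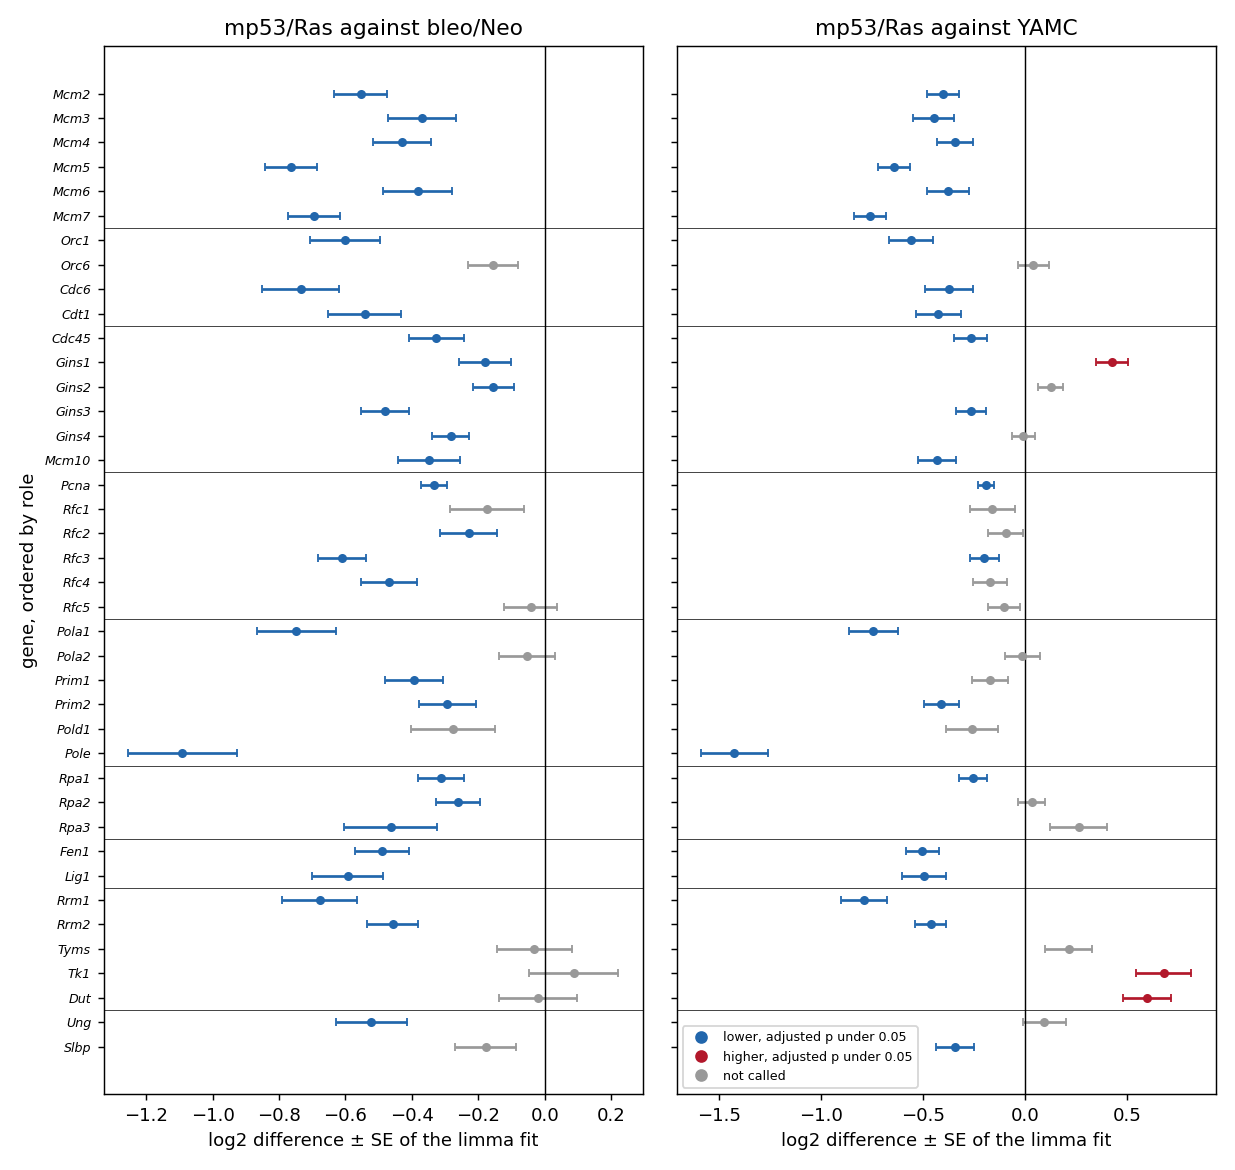
Points are log2 differences of mp53/Ras from bleo/Neo (left) and from YAMC (right) for the 40 genes in order of role, with bars of 1 standard error of the limma fit, blue for lower calls, red for higher calls and grey for none. On the left, 31 points are blue and none is red. On the right, 23 are blue and Gins1, Tk1 and Dut are red.

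Origin licensing starts with ORC, and Orc1 and Orc6 are 2 of its subunits. Orc1 lay between 7.76 and 8.83 (median 8.51) in bleo/Neo, 8.002 and 8.81 (8.34) in YAMC, 8.19 and 8.75 (8.39) in mp53, 7.71 and 8.51 (8.06) in Ras, and 7.37 and 8.18 (7.90) in mp53/Ras. The 2 groups with Ras were the low ones, and their arrays overlapped those of the controls. Orc1 fell by 0.60 ± 0.106 in mp53/Ras (adjusted p = 3.61e-06) and by 0.41 ± 0.106 in Ras (adjusted p = 0.00148) against bleo/Neo. The other probe set of Orc1 was at -0.06 in mp53/Ras and -0.01 in Ras, so these falls depend on the probe set. Orc6 differed by -0.16 ± 0.075 in mp53/Ras (adjusted p = 0.0722) and was not called.

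Cdc6, the ATPase that brings MCM to ORC, was highest in bleo/Neo, at 9.79 to 10.75 (median 10.27), against 9.59 to 10.26 (9.79) in YAMC. It lay at 9.36 to 10.24 (9.66) in mp53, 9.14 to 10.23 (9.97) in Ras and 9.28 to 9.77 (9.47) in mp53/Ras. All mp53/Ras arrays were below all bleo/Neo arrays, but not below all YAMC arrays. Cdc6 was lower than in bleo/Neo in all 3 oncogene populations, by -0.74 ± 0.117 in mp53/Ras, -0.54 ± 0.117 in mp53 and -0.39 ± 0.117 in Ras (adjusted p = 4.87e-07, 0.000198 and 0.0061). Cdt1, its partner in loading, fell by 0.54 ± 0.110 in mp53/Ras (adjusted p = 4.18e-05) and by 0.30 ± 0.110 in Ras (adjusted p = 0.0238). Its arrays ran from 11.42 to 12.15 (median 11.76) in mp53/Ras and from 11.87 to 12.72 (12.21) in bleo/Neo, and those groups overlapped.

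All 6 MCM subunits, the motor of the fork, fell in mp53/Ras against both controls, with a median of -0.49 against bleo/Neo and -0.43 against YAMC. In Ras 4 of the 6 fell against bleo/Neo (Mcm2, Mcm4, Mcm5 and Mcm7), and in mp53 Mcm5 alone. Mcm5 lay between 11.88 and 12.48 (median 12.21) in bleo/Neo, 11.92 and 12.22 (12.13) in YAMC, 11.78 and 12.27 (12.03) in mp53, 11.17 and 11.99 (11.69) in Ras, and 11.19 and 11.62 (11.43) in mp53/Ras. The mp53/Ras arrays were below every bleo/Neo, YAMC and mp53 array, and overlapped those of Ras. Against bleo/Neo, Mcm5 fell by 0.19 ± 0.077 in mp53 (adjusted p = 0.0436), by 0.52 ± 0.077 in Ras (adjusted p = 1.7e-07) and by 0.76 ± 0.077 in mp53/Ras (adjusted p = 3.9e-12). The mp53 call did not hold with the mean of the gene's probe sets, at 0.01 (adjusted p = 0.918).

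Mcm7 was also lowest in mp53/Ras, with 12.20 to 12.55 (median 12.36) in mp53/Ras, 12.44 to 12.96 (12.80) in Ras, 12.62 to 13.37 (12.90) in mp53, 12.78 to 13.23 (13.13) in bleo/Neo and 12.81 to 13.43 (13.14) in YAMC. Its mp53/Ras arrays lay apart from those of both controls and of mp53. The difference was -0.69 ± 0.079 from bleo/Neo (adjusted p = 1.15e-10), -0.76 ± 0.079 from YAMC (adjusted p = 1.3e-11) and -0.42 ± 0.079 from Ras (adjusted p = 5.7e-05). Mcm4 instead was alike in Ras, at 11.39 to 11.99 (median 11.64), and mp53/Ras, at 11.32 to 11.84 (11.66), and lay at 11.62 to 12.33 (12.09) in bleo/Neo. It fell by 0.40 ± 0.088 in Ras and by 0.43 ± 0.088 in mp53/Ras against bleo/Neo (adjusted p = 0.000205 and 4.33e-05). The other probe set of Mcm4 was at -0.07 in Ras and -0.21 in mp53/Ras, so the likeness of these groups depends on the probe set. Mcm2, Mcm3 and Mcm6 fell in mp53/Ras by 0.55, 0.37 and 0.38. Mcm3 has 4 further probe sets, at -0.09, -0.40, 0.18 and -0.11 in this comparison, so its value depends on the probe set.

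**Figure D3:**
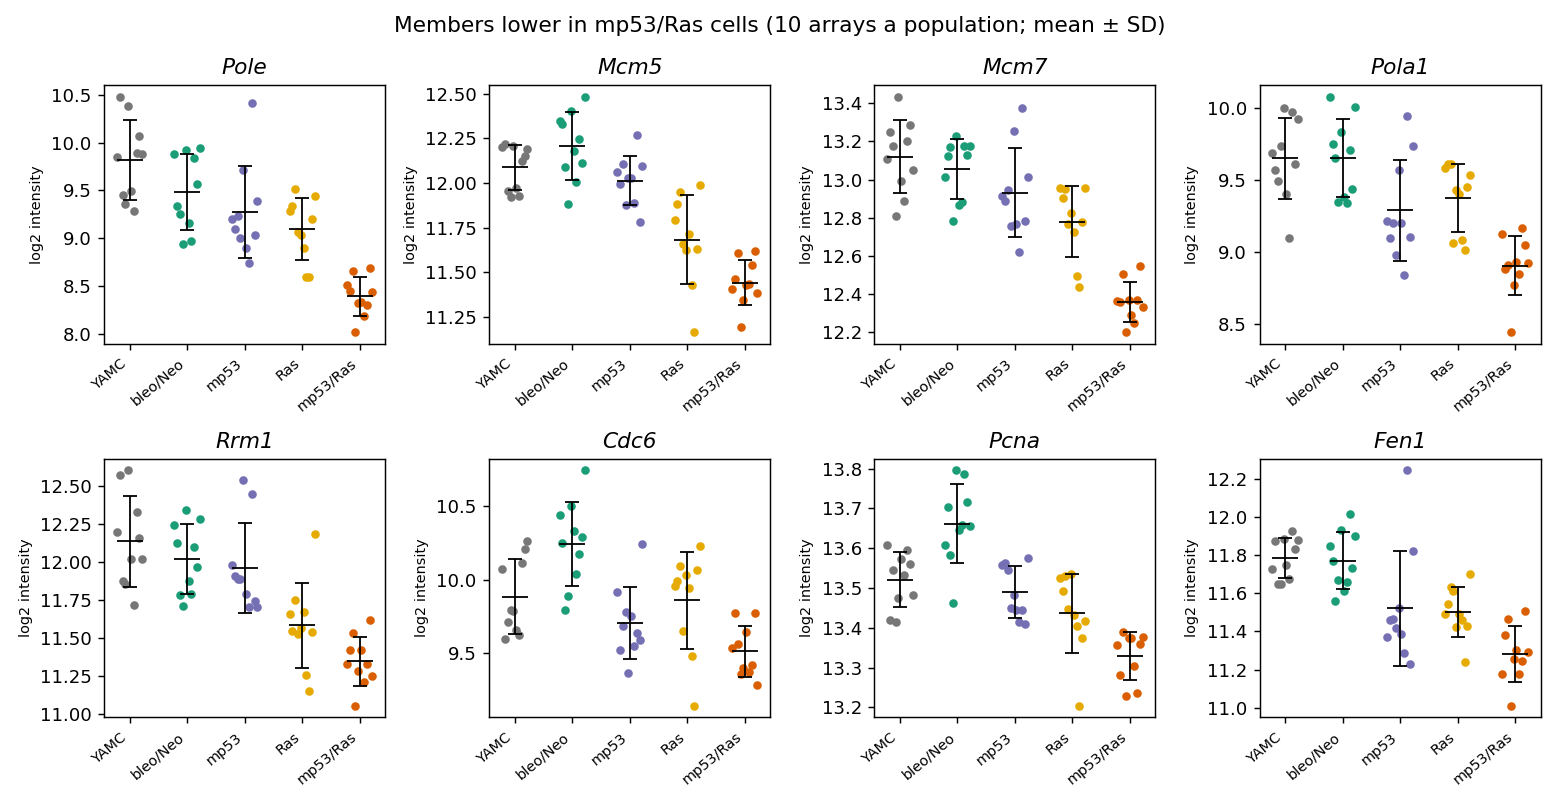
Each point is 1 array's log2 intensity for 8 members in the 5 groups of 10 arrays, with the mean and SD drawn. For each gene shown the mp53/Ras points have the lowest mean, and those of Pole, Mcm5 and Mcm7 lie below every bleo/Neo, YAMC and mp53 point.

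The factors that switch MCM on were less uniform. All 6 fell in mp53/Ras against bleo/Neo, while against YAMC 3 fell (Cdc45, Gins3 and Mcm10) and Gins1 rose. Cdc45, the helicase subunit that joins with GINS, fell by 0.33 ± 0.083 in mp53/Ras, 0.28 ± 0.083 in Ras and 0.26 ± 0.083 in mp53 against bleo/Neo (adjusted p = 0.000783, 0.00528 and 0.0127). The other probe set of Cdc45 in mp53/Ras was at 0.03 against bleo/Neo and 0.20 against YAMC. That of Mcm10 above the filter was at 0.07 against YAMC, so these falls depend on the probe set. Those of Gins3 (-0.28) and Gins1 (0.41) kept their sign against YAMC. The 4 GINS subunits form 1 complex, yet their values differed. Gins3 fell by 0.48 and Gins4 by 0.28 in mp53/Ras, Gins2 by 0.15 and Gins1 by 0.18. Gins4 lay at 11.51 to 11.85 (median 11.68) in mp53/Ras and 11.58 to 11.83 (11.73) in YAMC, below bleo/Neo at 11.81 to 12.10 (11.96) and mp53 at 11.60 to 12.09 (11.99), with Ras at 11.54 to 12.02 (11.81).

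Gins1 lay between 8.39 and 8.98 (median 8.84) in YAMC, 9.06 and 9.58 (9.38) in bleo/Neo, 8.40 and 9.14 (8.76) in mp53, 8.92 and 9.28 (9.11) in Ras, and 8.86 and 9.34 (9.21) in mp53/Ras. YAMC and mp53 were the low groups and the others the high ones, and every bleo/Neo array was above every YAMC array. The gene was higher in bleo/Neo than in YAMC by 0.60 ± 0.078 (adjusted p = 1.28e-08) and fell by 0.59 ± 0.078 in mp53 against bleo/Neo (adjusted p = 2.48e-08). Its lower call in mp53/Ras against bleo/Neo (adjusted p = 0.049) was lost without mp53/Ras array 4, at -0.14 (adjusted p = 0.12).

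Pole, the catalytic subunit of DNA polymerase epsilon that copies the leading strand, had the largest difference of the 40 members in this comparison. Pole lay between 9.29 and 10.48 (median 9.87) in YAMC, 8.94 and 9.94 (9.45) in bleo/Neo, 8.74 and 10.41 (9.15) in mp53, 8.59 and 9.51 (9.13) in Ras, and 8.02 and 8.69 (8.38) in mp53/Ras. Every mp53/Ras array was below every YAMC, bleo/Neo and mp53 array. The level was 2.13-fold lower than in bleo/Neo (-1.09 ± 0.163, adjusted p = 1.35e-07) and 2.68-fold lower than in YAMC (-1.42 ± 0.163, adjusted p = 2.21e-10), and Pole was the only member past 2-fold in either comparison. Against bleo/Neo the differences in mp53 (-0.21) and Ras (-0.39) were not called. Pole has 1 probe set of its own in this table.

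Pola1, the catalytic subunit of polymerase alpha, which extends primers, lay at 8.45 to 9.17 (median 8.92) in mp53/Ras and 9.34 to 10.08 (9.68) in bleo/Neo. In mp53 it lay at 8.84 to 9.95 (9.21), in Ras at 9.02 to 9.61 (9.45) and in YAMC at 9.10 to 10.00 (9.65). It fell by 0.75 ± 0.120 in mp53/Ras (adjusted p = 5.62e-07) and by 0.36 ± 0.120 in mp53 (adjusted p = 0.0139) against bleo/Neo, and by 0.74 ± 0.120 in mp53/Ras against YAMC (adjusted p = 6.78e-07). Its partner Pola2 differed by -0.05 ± 0.084 (adjusted p = 0.615) in mp53/Ras. The primase subunits Prim1 and Prim2 fell by 0.39 and 0.29, and Pold1, of polymerase delta, differed by -0.28 ± 0.127 (adjusted p = 0.0627). Prim1 arrays lay at 11.36 to 11.80 (median 11.65) in mp53/Ras and at 11.81 to 12.32 (12.0045) in bleo/Neo, without overlap, but at 11.63 to 11.98 (11.78) in YAMC.

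PCNA is the ring that tethers polymerases to DNA. Pcna moved over a narrow range: 13.23 to 13.39 (median 13.36) in mp53/Ras, 13.20 to 13.53 (13.44) in Ras, 13.41 to 13.58 (13.47) in mp53, 13.41 to 13.61 (13.54) in YAMC and 13.46 to 13.80 (13.66) in bleo/Neo. The mp53/Ras arrays lay below all arrays of both controls and of mp53. The difference from bleo/Neo was -0.33 ± 0.038 (adjusted p = 1.6e-10), from YAMC -0.19 ± 0.038 (adjusted p = 2.91e-05), and from Ras -0.11 ± 0.038 (adjusted p = 0.0356, and 0.074 without mp53/Ras array 4). Of the 5 RFC loader subunits, Rfc3, Rfc4 and Rfc2 fell by 0.61, 0.47 and 0.23 in mp53/Ras against bleo/Neo, while Rfc1 (-0.17, adjusted p = 0.184) and Rfc5 (-0.04, adjusted p = 0.671) were not called. Rfc3 was the only member whose Ras arrays all lay below all bleo/Neo arrays (2.5% of members, below the 3.49% of all genes).

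RPA coats single-stranded DNA. Its 3 subunits fell in mp53/Ras against bleo/Neo, and Rpa1 alone fell against YAMC. Rpa1 lay at 12.62 to 12.99 (median 12.88) in mp53/Ras and 12.73 to 13.42 (13.15) in bleo/Neo and fell by 0.31 ± 0.069 (adjusted p = 0.000145). Rpa2 fell by 0.26 ± 0.066 (adjusted p = 0.000764), but its other probe set differed by 0.01. Rpa3 spread widely in 2 groups, at 9.77 to 10.99 (median 10.78) in YAMC and 10.06 to 11.28 (11.11) in mp53, against 10.81 to 11.80 (11.33) in bleo/Neo, 10.81 to 11.23 (11.002) in Ras and 10.70 to 11.03 (10.84) in mp53/Ras. It fell by 0.46 ± 0.139 in mp53/Ras against bleo/Neo (adjusted p = 0.00421) and rose by 0.73 ± 0.139 in bleo/Neo against YAMC (adjusted p = 3.86e-05), the largest difference of that comparison among the members.

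The Okazaki fragment enzymes both fell against both controls. Fen1, the nuclease that trims the flap, lay at 11.01 to 11.51 (median 11.27) in mp53/Ras, 11.56 to 12.02 (11.75) in bleo/Neo and 11.65 to 11.93 (11.79) in YAMC, without overlap with either control. It lay at 11.23 to 12.25 (11.44) in mp53 and 11.24 to 11.70 (11.49) in Ras. Fen1 was lower in all 3 oncogene populations against both controls, by -0.25, -0.27 and -0.49 against bleo/Neo in mp53, Ras and mp53/Ras (± 0.081, adjusted p = 0.0125, 0.00605 and 1.03e-06). Lig1, which seals the nick, fell by 0.59 ± 0.108 in mp53/Ras (adjusted p = 6.12e-06), and it was the only member whose mp53/Ras arrays all lay below all Ras arrays (2.5% of members against 3.3% of all genes).

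The genes for nucleotide supply divided. Ribonucleotide reductase, which makes deoxynucleotides, was lower: Rrm1, its large subunit, lay at 11.05 to 11.62 (median 11.33) in mp53/Ras and 11.15 to 12.18 (11.55) in Ras, against 11.71 to 12.34 (12.03) in bleo/Neo, 11.71 to 12.60 (12.09) in YAMC and 11.70 to 12.54 (11.89) in mp53. The mp53/Ras arrays lay below all arrays of the 3 groups without Ras. Rrm1 fell by 0.68 ± 0.113 in mp53/Ras and by 0.44 ± 0.113 in Ras against bleo/Neo (adjusted p = 1.22e-06 and 0.00137), with -0.06 in mp53. The other probe set of Rrm1 above the filter was at -0.28 in mp53/Ras, -0.46 in Ras and 0.10 in mp53. The order of mp53/Ras and Ras therefore depends on the probe set. Rrm2, the small subunit, went with mp53 instead. It lay at 11.998 to 12.78 (12.13) in mp53 and 11.88 to 12.49 (12.21) in mp53/Ras, against 12.52 to 12.88 (12.67) in bleo/Neo, 12.33 to 12.69 (12.57) in Ras and 12.35 to 12.92 (12.71) in YAMC. It fell by 0.44 ± 0.077 in mp53 and by 0.46 ± 0.077 in mp53/Ras (adjusted p = 8.27e-06 and 1.6e-06), and Ras stood above mp53 by 0.29 ± 0.077 (adjusted p = 0.00236). The 2 other probe sets of Rrm2 were at -0.40 and -0.0041 in mp53/Ras against bleo/Neo.

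Tk1, the salvage kinase for thymidine, lay between 9.75 and 11.09 (median 10.71) in YAMC, 10.84 and 11.61 (11.18) in bleo/Neo, 10.17 and 10.98 (10.67) in mp53, 10.03 and 11.38 (11.21) in Ras, and 11.01 and 11.50 (11.32) in mp53/Ras. YAMC and mp53 were low, and every mp53/Ras array was above every mp53 array. Tk1 rose by 0.59 ± 0.134 in bleo/Neo and by 0.68 ± 0.134 in mp53/Ras against YAMC (adjusted p = 0.000394 and 2.77e-05) and fell by 0.60 ± 0.134 in mp53 against bleo/Neo (adjusted p = 0.000364). In mp53/Ras against bleo/Neo it differed by 0.09 ± 0.134 (adjusted p = 0.606).

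Dut, which removes dUTP, was likewise low in YAMC and mp53: 10.44 to 11.74 (median 11.32) in YAMC and 10.61 to 11.82 (11.55) in mp53, against 11.53 to 12.09 (11.73) in Ras, 11.73 to 11.98 (11.84) in mp53/Ras and 11.58 to 12.22 (11.88) in bleo/Neo. It rose by 0.62 ± 0.117 in bleo/Neo and by 0.60 ± 0.117 in mp53/Ras against YAMC (adjusted p = 3.28e-05 and 2.4e-05) and fell by 0.42 ± 0.117 in mp53 against bleo/Neo (adjusted p = 0.00399). Tyms, thymidylate synthase, was not called in mp53/Ras against either control.

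Ung, which excises uracil from DNA, was highest in bleo/Neo, at 9.504 to 10.39 (median 10.17). It lay at 9.05 to 10.06 (9.45) in YAMC, 9.05 to 9.99 (9.75) in mp53, 9.46 to 9.90 (9.81) in Ras and 9.39 to 9.86 (9.62) in mp53/Ras. It rose by 0.62 ± 0.107 in bleo/Neo against YAMC (adjusted p = 6.55e-06) and fell by 0.52 ± 0.107 in mp53/Ras against bleo/Neo (adjusted p = 4.47e-05). Slbp, which binds histone mRNA, was at 11.40 to 11.58 (median 11.51) in mp53/Ras, below all YAMC arrays, at 11.61 to 12.35 (11.79), but within the range of bleo/Neo, at 11.38 to 11.94 (11.68). It fell by 0.34 ± 0.092 against YAMC (adjusted p = 0.00137).

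**Figure D4:**
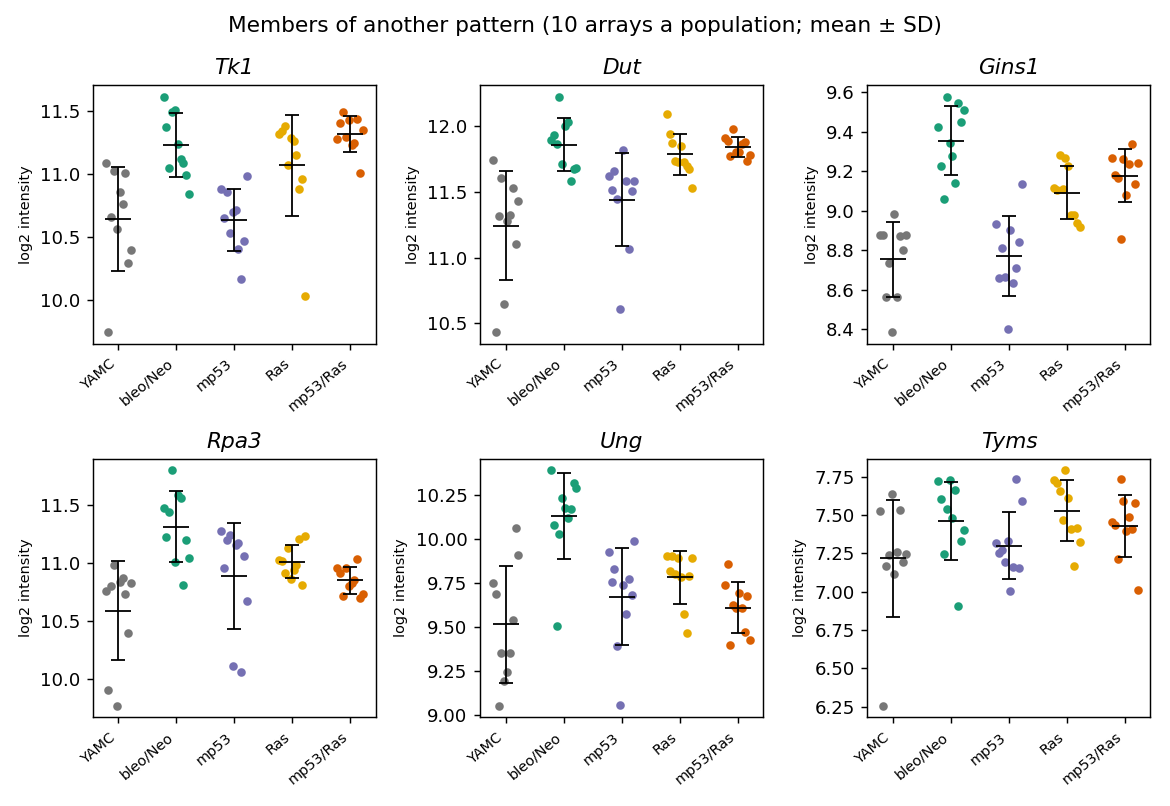
Each point is 1 array's log2 intensity for 6 members in the 5 groups of 10 arrays, with the mean and SD drawn. For Tk1, Dut and Gins1 the YAMC and mp53 points are low and the mp53/Ras points lie near those of bleo/Neo or Ras.

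On 4 arrays these genes stood apart from others of the list. Rpa3 was at 9.91 and 9.77 on YAMC 2 and YAMC 5 and at 10.11 and 10.06 on mp53 5 and mp53 8, the lowest of their groups, and Dut was at 10.44, 10.64, 10.61 and 11.06. On the same arrays Rrm1 was at 12.57, 12.60, 12.54 and 12.44, the highest of their groups. Without these 4 arrays, a choice made after the data were seen, the higher calls of Tk1, Dut and Gins1 in mp53/Ras against YAMC held, at 0.56, 0.42 and 0.39. Rpa3 in mp53 against bleo/Neo went from -0.42 ± 0.139 (adjusted p = 0.0141) to -0.22 (adjusted p = 0.0531), and Dut from -0.42 to -0.27 (adjusted p = 0.00349).

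Fewer members were called with a single oncogene than with both. In mp53 against bleo/Neo 17 members fell and 0 rose (background 35.4% called, 18.9% lower and 16.5% higher), with a median of -0.18, and no member's arrays separated (2.04% of all genes did so downward and 2.48% upward). In Ras against bleo/Neo 20 fell and 0 rose (background 41.1% called, 21.4% lower and 19.7% higher), with a median of -0.23. At an unadjusted p under 0.05 limma gave 20 lower and 0 higher in mp53, and 24 lower and 0 higher in Ras. No background of all genes was computed for these unadjusted counts. The largest falls in mp53 were those of Tk1, Gins1, Cdc6 and Ung (-0.46 ± 0.107, adjusted p = 0.000533), and in Ras those of Mcm5, Rrm1, Orc1 and Mcm4.

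Against YAMC the single oncogenes moved fewer of the members, or moved them both ways. In mp53, 6 fell and Gins4 rose (background 22.9% called, 11.8% lower and 11.1% higher), and in Ras 10 fell and 7 rose (background 42.7% called, 21.2% lower and 21.5% higher). The Ras shares, 25% lower and 17.5% higher, lie near the background. Lower than both controls were Pola1, Fen1 and Rrm2 in mp53 (7.5% against 5.58% of all genes), and Mcm4, Mcm5, Mcm7, Orc1, Cdc45, Fen1 and Rrm1 in Ras (17.5% against 11.2%). The mp53 share lies near the background. In mp53 the count against YAMC went from 7 to 12 both without YAMC 2, mp53 8, mp53 10 and Ras 10, the arrays closer to another group's mean profile than to their own, and without YAMC 2, YAMC 5, mp53 5 and mp53 8. The members' share was then 30% both times, against 33.7% and 32.4% of all genes.

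Set directly against each single oncogene, mp53/Ras was lower than mp53 in 19 members and higher in 3 (background 47.1% called, 23.8% lower and 23.3% higher). The 3 higher were Gins1, Tk1 and Dut, by 0.41, 0.68 and 0.40. Dut was at 0.25 without YAMC 2, YAMC 5, mp53 5 and mp53 8. Arrays separated in 8 members, 7 lower (17.5% against 6.87% of all genes) and Tk1 higher (2.5% against 4.14%). Against Ras, 12 fell and 0 rose (background 21.6% called, 12.5% lower and 9.12% higher). At an unadjusted p under 0.05 in limma, 17 were lower and 0 higher, a count without a background of all genes. Between the single oncogenes, Ras was lower than mp53 in 7 members (Mcm4, Mcm5, Orc1, Cdt1, Gins4, Rpa2 and Rrm1) and higher in 4 (Gins1, Rrm2, Tk1 and Dut), with a background of 32.9% called, 16.2% lower and 16.7% higher.

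The study's title asks whether the oncogenes act together beyond the sum of their effects. The non-additive term, mp53/Ras minus mp53 minus Ras plus bleo/Neo on the log2 scale, was called in 4 of the 40 members, 3 above 0 and 1 below, against a background of 23.9% of all genes (11.8% higher and 12% lower). The members' share lies below the background. Tk1 was at 0.84 ± 0.190 (adjusted p = 0.00065), Gins1 at 0.67 ± 0.110 (adjusted p = 5.45e-06) and Dut at 0.47 ± 0.166 (adjusted p = 0.0314), so in these 3 the level with both oncogenes was above the sum of the single effects. With YAMC in place of bleo/Neo as the baseline, a choice made after the data were seen, the terms were 0.25, 0.07 and -0.15 (adjusted p = 0.433, 0.755 and 0.637), and none was called. Dut also missed the threshold without bleo/Neo 4, Ras 8 and mp53/Ras 4, at 0.41 (adjusted p = 0.0895). Mcm7 was at -0.30 ± 0.111 (adjusted p = 0.044) and was not called without mp53/Ras array 4, at -0.28 (adjusted p = 0.0665). Pole, at -0.50, and the other members were not called.

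Genes of the same pathway outside the 40 were taken from lists chosen with earlier results of these data known. Of 35 other fork and origin genes that passed the filter, 22 fell (62.9%) and 1 rose (2.86%) in mp53/Ras against bleo/Neo, with a median of -0.27. Of all genes, 27.9% were lower and 26.7% higher. Cdc7, the kinase that fires origins, fell by 0.83 ± 0.085 (adjusted p = 6.27e-12), and Mcm8, an MCM relative of DNA repair, by 0.90 ± 0.160 (adjusted p = 4.78e-06), both with every mp53/Ras array below every bleo/Neo array. Chaf1b, a histone chaperone of the fork, fell most in Ras, by 0.96 ± 0.102 (adjusted p = 4.71e-11). Rnaseh2b, of the enzyme that removes ribonucleotides from DNA, rose by 0.59 ± 0.079 in bleo/Neo against YAMC (adjusted p = 2.15e-08) and fell by 0.58 ± 0.079 in mp53 against bleo/Neo (adjusted p = 3.56e-08), the order of groups of Gins1.

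Of 17 genes of S phase chromatin and fork repair, 11 fell (64.7%) and 1 rose (5.88%) in mp53/Ras against bleo/Neo, with a median of -0.38. The shares of all genes were 27.9% and 26.7%. Brca1, which protects stalled forks, fell by 1.06 ± 0.149 (adjusted p = 3.4e-08) and Atr, the kinase of the replication checkpoint, by 0.97 ± 0.173 (adjusted p = 4.8e-06). Of 25 other nucleotide synthesis genes, 10 fell (40%) and 7 rose (28%), and the higher share lies near that of all genes. Cad, which starts pyrimidine synthesis, fell by 1.09 ± 0.160 (adjusted p = 7.74e-08), and Uck2, a uridine and cytidine kinase, rose by 0.83 ± 0.120 (adjusted p = 5.98e-08).

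Of 23 genes of E2F and G1/S control, 7 rose and 7 fell in mp53/Ras against bleo/Neo, 30.4% each way, near the background of 26.7% higher and 27.9% lower. Rb1, the brake on E2F, fell by 1.77 ± 0.092 (adjusted p = 2.9e-22), with 0.61 in Ras and 0.39 in mp53. E2f6, a repressor of the family, rose by 1.03 ± 0.109 (adjusted p = 1.63e-11), and Tfdp2, a DNA-binding partner of E2F, fell by 1.27 ± 0.131 against YAMC (adjusted p = 1.4e-11). Of 27 genes of mitosis, which follows S phase in the same cycle, 8 rose (29.6%) and 4 fell (14.8%) in mp53/Ras against bleo/Neo, beside the same background, with a median of 0.08. Cenpa, the centromeric histone, rose by 0.79 ± 0.173 (adjusted p = 0.000117), while Mki67, the proliferation antigen, fell by 0.70 ± 0.207 (adjusted p = 0.00353). The median level of the mitosis list was 9.72 in mp53/Ras and 9.73 in bleo/Neo, and in mp53/Ras against mp53, 13 of the 27 rose (48.1%) and 2 fell (7.41%), against 23.3% and 23.8% of all genes. A difference between the lists was not tested.

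**Figure D5:**
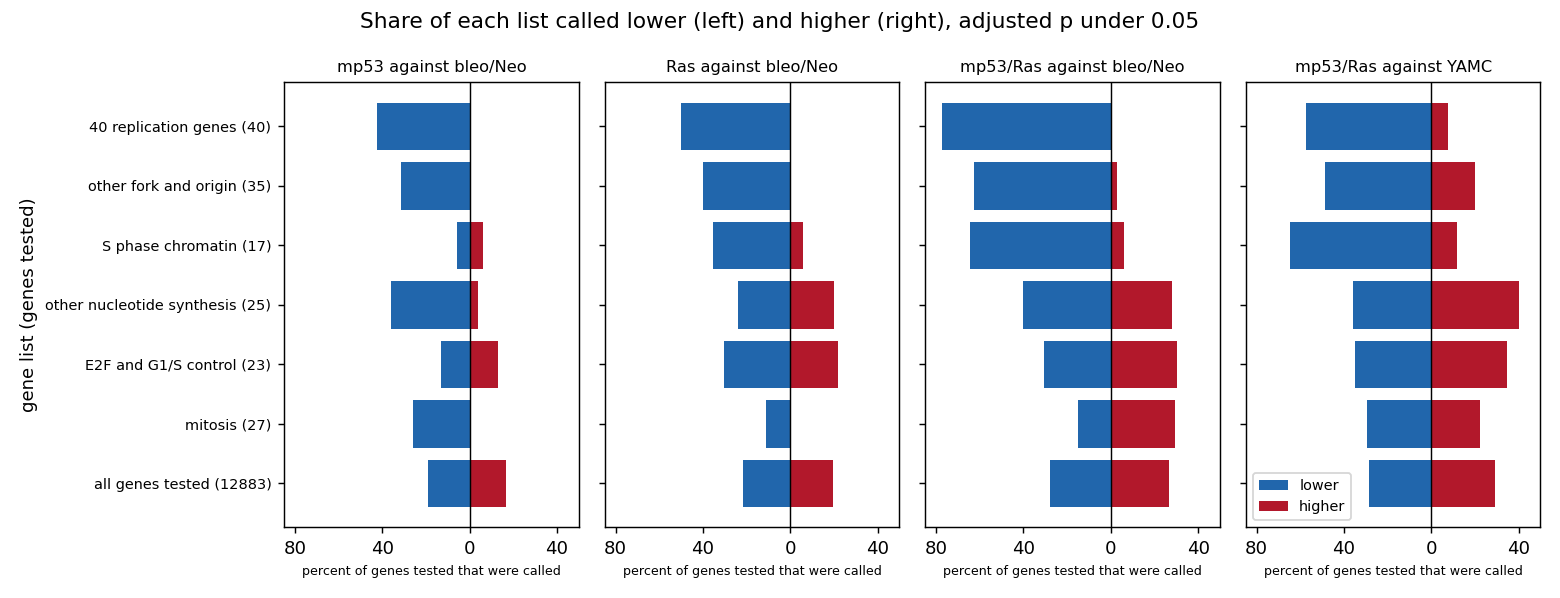
Bars give the percent of each list's tested genes called lower (left of 0, blue) and higher (right of 0, red) in 4 comparisons, with the number tested in parentheses and all 12883 genes in the bottom row. In mp53/Ras against bleo/Neo the 40 genes reach 77.5% lower and 0% higher, against 27.9% and 26.7% of all genes.

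Of the 31 members that fell in mp53/Ras against bleo/Neo, 23 have other probe sets above the filter. Of those 32 probe sets, 28 had the same sign and 4 the opposite one, and 9 gave under 0.4 of the change (in Mcm3, Orc1, Cdc45, Mcm10, Prim2, Rpa2 and Rrm2). In Ras against bleo/Neo, 16 of the 20 members called have 19 such probe sets. All 19 had the same sign, and 3 gave under 0.4 of the change (in Mcm4, Mcm5 and Orc1). In mp53/Ras against YAMC, 19 of the 26 members called have 27 such probe sets. Of these, 23 had the same sign and 4 the opposite one. In that comparison 10 gave under 0.4 of the change (in Mcm3, Mcm4, Orc1, Cdc45, Mcm10, Rfc3, Prim2 and Rrm2). The markers of the labelled cell type were mixed: 7 of 12 markers of colon and simple epithelium passed the filter, with Krt8, Krt18, Krt19 and Epcam among them and Cdh1, Vil1, Cdx1, Cdx2 and Cldn4 not. The summed linear intensity of all 12 ranged from 5252 to 10369 over the YAMC arrays, 9773 to 14510 in bleo/Neo, 7895 to 15246 in mp53, 11472 to 16278 in Ras and 13843 to 17092 in mp53/Ras. This sum hides opposite moves: the mean log2 level of Krt18 was 11.24 in bleo/Neo and 12.67 in mp53/Ras, and that of Krt19 was 11.54 and 9.78. In mp53/Ras against bleo/Neo, 3 of the 7 were higher (42.9%) and 2 lower (28.6%), against 26.7% and 27.9% of all genes. Of 10 markers of fibroblasts and smooth muscle, 6 passed, among them Col1a1, Col3a1 and Acta2. The summed linear intensity of all 10 ranged from 43472 to 61727 over the YAMC arrays, 27501 to 44031 in bleo/Neo, 27387 to 64339 in mp53, 20275 to 44398 in Ras and 27666 to 36065 in mp53/Ras. Members of that list moved in opposite ways: the mean log2 level of Col1a2 was 8.68 in bleo/Neo and 12.41 in mp53/Ras, and that of Dcn was 12.92 and 10.69. Of immune markers 2 of 5 passed, and of endothelial markers 2 of 4. The sum over all 5 immune markers was 558 to 787 in mp53/Ras and 828 to 2473 in bleo/Neo. That over all 4 endothelial markers was 226 to 315 and 366 to 468. The part of these markers in the results was not tested. Arrays YAMC 2, Ras 10, mp53 8 and mp53 10 were nearer to another group's mean profile than to their own. Without them 34 members (85%) were called lower in mp53/Ras against bleo/Neo, beside 57.9% of all genes called either way. None of these arrays belongs to mp53/Ras or bleo/Neo, so the differences themselves did not change.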

How the data were processed

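The authors deposited 1 table of linear intensities for 45101 probe sets and 50 arrays. The submitters' processing notes name RMA and give no version, and array medians from 86.4 to 86.7 show a shared scale. Build, scan dates and detection calls are not given in the sources used here. Intensities were put on a log2 scale without an offset. Probe sets with 1 symbol (34945) were kept, those with several (932) or none (9160) left out, the highest mean chosen per gene, and genes kept if above the table median (6.44) on at least 10 of 50 arrays, leaving 12883. R 4.3.3 with limma 3.58.1 fitted 1 coefficient per group over all 50 arrays, using eBayes with a trend, and p-values were adjusted by Benjamini-Hochberg within each of 11 comparisons. The script was tested on simulated data. The number of arrays limits the precision. Members and lists were chosen with earlier results of these data known. Genes described in detail are the 4 called members with the largest difference in each of 6 comparisons and the highest-mean member of each role, and up to 2 per further list. The rule for promoters was the 4 largest differences, but of those Mcm5 alone had a window outside the gene's own record. The next ones with such a window are therefore shown. The alternatives tried were other filters, probe set rules, offsets, scalings, eBayes settings, array weights, a replicate block and left-out arrays.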

Additional observations from a re-analysis of the deposited data

Results flagged for a closer look

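In 110 sets of 10 arrays (the 21 named members and the mean of the 40, in 5 groups), 8 had a single array far from the other 9, and chance alone gives about 1 in 20. Tk1 was at 10.03 on Ras 10, with the next array at 10.88. Gins1 was at 8.86 on mp53/Ras 4, with the next at 9.08. Ung was at 9.504 on bleo/Neo 3, with the next at 10.03. Orc1 was at 8.75 on mp53 8, with the next at 8.45. Mcm4 was at 12.43 on mp53 5, with the next at 12.11. Pcna was at 13.20 on Ras 8, with the next at 13.37. Rpa1 was at 13.42 on Ras 10, with the next at 13.06. The mean of the 40 members was 10.38 on mp53/Ras 4, with the next at 10.50.

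The effect of mutant p53 differed with and without Ras, by the non-additive term, in Tk1 (0.84), Gins1 (0.67), Dut (0.47) and Mcm7 (-0.30). With YAMC as the baseline none of these calls held, at 0.25 in Tk1, 0.07 in Gins1, -0.15 in Dut and -0.23 in Mcm7. Mcm7 also missed the threshold without mp53/Ras array 4 (adjusted p = 0.0665 from limma), and Dut without bleo/Neo 4, Ras 8 and mp53/Ras 4 (adjusted p = 0.0895).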

How the results depend on the processing

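Over 13 alternatives the count of members lower in mp53/Ras against bleo/Neo ranged from 28 to 34, while 51% to 63.5% of all genes were called. The 28 came with the probe set of largest variance, as 75.7% of the members tested there. Of the 31, 24 kept their call in every alternative that tested them. Over all comparisons, 176 of 182 member calls were refitted with the largest variance and 181 with the mean of probe sets. Array weights moved the count called from 7 to 18 in mp53 against YAMC, from 12 to 21 in mp53/Ras against Ras, from 11 to 17 in Ras against mp53 and from 4 to 11 in the non-additive term, while the shares of all genes called rose to 46.3%, 38.6%, 52.6% and 39.9%. Leaving out the 4 arrays nearer another group gave 12 in mp53 against YAMC, with 33.7% of all genes called. Chosen after seeing the data, leaving out YAMC 2, YAMC 5, mp53 5 and mp53 8 also gave 12 there (32.4%), and leaving out bleo/Neo 4, Ras 8 and mp53/Ras 4 gave 2 in the non-additive term (21.5%). With YAMC as its baseline the members' median went from 0.06 to -0.0911. The sign turned for Rpa2 in mp53/Ras against bleo/Neo (0.00886) and Mcm3 in mp53/Ras against YAMC (0.41) with the probe set of largest variance, for Mcm5 in mp53 against bleo/Neo (0.0125) with the mean of probe sets, and for Dut (-0.15), Rnaseh2b (-0.00912) and Tk2 (-0.0197) in the non-additive term with YAMC as baseline. The cause was not tested. The replicate block gave 9 calls in the non-additive term in place of 4 (28.1% of all genes) and 32 in mp53/Ras against bleo/Neo in place of 31 (58.2%). Arrays were not treated as pairs, since 67 of 100 same-numbered pairs, not all, had a correlation over 0.1. Same-numbered arrays still deviated together in part, with a mean correlation of 0.198 against -0.0203 for different numbers, and the best match of 31 of 50 arrays had its own number, which is a hint from the data and not the design. Of 2909 refits of single members' calls, 2778 kept sign and call, 127 lost the call and 4 turned. Dim signal limits Tyms most.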
